A study of Mus musculus with 36 samples.

Results

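The 12 hepatocyte libraries of a mouse liver series of 36 libraries differed widely in Malat1, a long noncoding RNA of the nucleus, and were divided by it into a high side of 5 libraries and a low side of 7. A library was placed on the high side when Malat1 reached 100 CPM (counts per 1000000 summed gene counts), and on the low side below that. The series measured stellate cells, sinusoidal endothelial cells and hepatocytes of C57BL/6 mice by bulk RNA sequencing, in 4 libraries per cell type and condition. The hepatocyte groups were WT (described for the series as mice given PBS) and mice examined 12 h or 36 h after diphtheria toxin (DT) had been given to remove their Kupffer cells, which are macrophages that live in the liver. The labels give the same strain for all libraries and no genotype, sex, age or feeding state, no time of day, and no date of isolation or sequencing. They do not say that each library came from 1 mouse, so a p-value here measures the spread between libraries. No group received DT with its Kupffer cells kept.

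Malat1 lies in nuclear speckles, the bodies that store splicing factors, and Neat1, its neighbour on the chromosome, builds another nuclear body, the paraspeckle. Both RNAs stay in the nucleus and are not translated. Hepatocytes make fatty acids and cholesterol for export and storage, and SREBP transcription factors drive the genes of both pathways. Immediate early genes such as Jun and Ier2 are switched on within minutes of a stimulus, without new protein being made.

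By the rule, Malat1 stood at 392 and 391 CPM in WT replicates 1 and 2, at 559 CPM in 12 h replicate 1, and at 263 and 274 CPM in 36 h replicates 1 and 2. On the low side it ran from 23.7 to 42.5 CPM with a median of 29.5. No library lay between 42.5 and 263 CPM, and thresholds of 50 or 200 CPM gave the same sides. Each time group held both sides, as 2 high and 2 low libraries in WT and at 36 h and 1 high and 3 low at 12 h. All 6 libraries numbered 3 or 4 were low and 5 of the 6 numbered 1 or 2 were high, so the side and whatever the numbers stand for cannot be told apart except through replicate 2 at 12 h. The sides were chosen by these Malat1 values, which are therefore a description with no test. The lowest Malat1 count was 621 reads, so counting error is small beside the gap.

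Malat1 showed no such gap in the other cells, though it leaned the same way by number. In the 12 stellate cell libraries it ran from 1026 to 2114 CPM with a median of 1497, and in the 12 endothelial libraries from 337 to 1019 CPM with a median of 620. The stellate libraries that share time and number with the high hepatocyte libraries held 1265 to 1966 CPM and the others 1026 to 2114 CPM, with medians of 1850 and 1470 CPM. The endothelial ones held 640 to 902 and 337 to 1019 CPM, with medians of 853 and 492 CPM. In both cell types the ranges over all times overlap. Within times, however, the endothelial library numbered 1 at 12 h held 640 CPM, above the other 3 at 337 to 525 CPM, and those numbered 1 and 2 at 36 h held 902 and 716 CPM, above the other 2 at 492 and 478 CPM. In WT the endothelial libraries numbered 1 and 2, at 876 and 853 CPM, lay between numbers 3 and 4 at 599 and 1019 CPM. Among stellate libraries number 1 at 12 h, at 1850 CPM, lay above the other 3, while the values overlapped in WT and at 36 h. The differences in these cells were not tested. The low hepatocyte libraries lay below every library of the other cells, and 3 of the 5 high ones lay within the endothelial range.

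Levels from here on are CPM on TMM-scaled totals of the 12 hepatocyte libraries. High was compared with low in edgeR's quasi-likelihood fit with the time group as a term, and a gene is called where its Benjamini-Hochberg adjusted p was under 0.05. Because the sides were drawn from these same libraries, a call ranks a gene by how well it follows the split and is not a test of a labelled condition, and no p is given for the difference of a single gene between the sides. Of 11326 genes tested, 4883 (43.1%) were called, 2547 (22.5%) higher and 2336 (20.6%) lower on the high side. At least 2-fold differences were fewer, with 337 genes (2.98%) higher and 322 (2.84%) lower. The sides did not overlap for 1455 genes (12.8%) above and 1204 (10.6%) below. Counts for the gene lists below are to be read beside these shares of all genes. The median log2 difference over all genes was 0.01, and 0.20 when libraries were scaled by their totals alone. That scaling turned the split of calls to 3933 higher and 1221 lower, so lists whose median lies within about that shift have no firm direction.

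Some libraries stood apart within their side. Replicate 2 at 36 h, on the high side, had the lowest levels of long mRNAs of all 12 libraries, and replicate 2 at 12 h, on the low side, lay nearer to the high side than the other low libraries of its time. When the genes were called without a library and that library was then placed between the side means of these genes (0 for low, 1 for high), replicate 2 at 12 h lay at a median of 0.13, replicate 4 at 36 h, also low, at 0.19 and replicate 2 at 36 h at 1.30. The high library at 12 h lay at 0.74. Of the genes called without it, 74.1% (12 h replicate 1) to 94.2% (WT replicate 4) put a library on its own side of the midpoint. Counts for lists are given below also without both libraries numbered 2 at 12 h and 36 h, where 2482 genes were higher and 2294 lower.

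Several other long noncoding RNAs were ordered like Malat1. Neat1 (chromosome 19, 5824708 to 5845478, mm10), which lies close to Malat1 (5795690 to 5802672) on the same strand, stood at 46.9 and 61.7 CPM in the 2 high WT libraries, 125 CPM at 12 h and 44.2 and 42.0 CPM at 36 h. The 7 low libraries held 2.53 to 7.16 CPM with a median of 5.03. The sides lie far apart, and the fitted difference was 14.9-fold (log2 3.90 ± 0.23 SE). In bulk samples fewer cells of a type and less RNA per cell cannot be told apart.

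Xist, which coats the inactive X chromosome of female cells, stood at 30.5 and 34.4 CPM in WT, 43.0 CPM at 12 h and 28.1 and 27.1 CPM at 36 h on the high side, against 2.18 to 4.38 CPM on the low side. The fitted difference was 9.37-fold (log2 3.23 ± 0.13 SE). Firre, an X-linked RNA that holds chromatin in place, ran from 4.80 to 14.8 CPM on the high side and from 0.245 to 1.45 CPM on the low side (14.4-fold, log2 3.85 ± 0.26 SE). The Y-linked genes Ddx3y, Uty, Kdm5d and Eif2s3y were at 0 in all 12, which is the same for both sides.

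**Figure D1:**
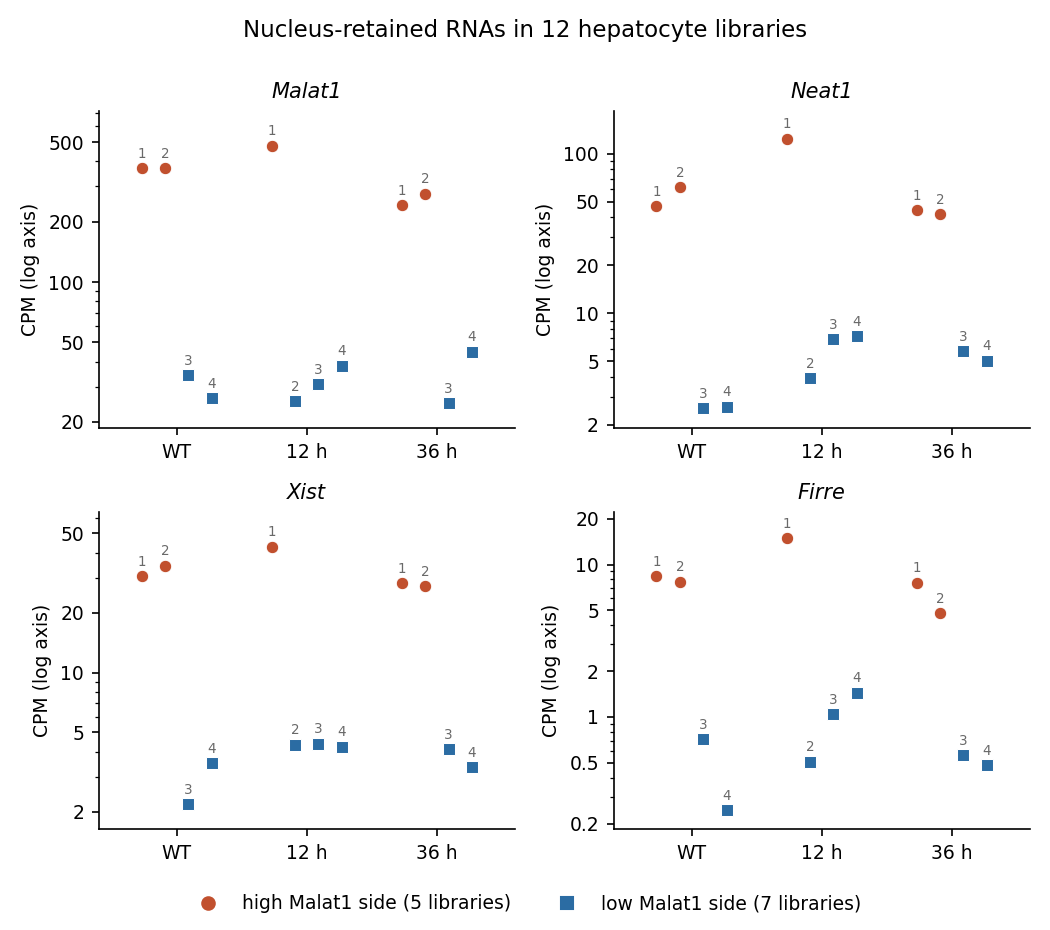
Level of Malat1, Neat1, Xist and Firre in each of 12 hepatocyte libraries (CPM on TMM-scaled totals, log axis), by time group, with the replicate number beside each point; circles are the high Malat1 side and squares the low side. In every panel the 5 high libraries lie above all 7 low ones; for Malat1 this follows from the rule.

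A list drawn up for nucleus-retained RNAs held 16 long noncoding RNAs. Gas5, Norad, Snhg1 and Snhg12 are among them, so its count is not of nuclear RNAs alone. Where these RNAs lay in the cell was not measured. Of the 16, 15 were in the files and 10 besides Malat1 passed the filter on low counts. Of these 10, 8 were higher and none lower, with a median log2 difference of 1.34, and a low RNA could pass the filter through the side where it is high. Gas5, which hosts small nucleolar RNAs in its introns, ran from 13.2 to 17.9 CPM on the high side and from 4.00 to 10.05 CPM on the low side (2.55-fold, log2 1.35 ± 0.19 SE). Tug1 and Jpx were not called. Tug1 went against Malat1 where it was called, which was lower on the high side without replicate 1 or replicate 4 at 36 h (log2 -0.36 and -0.32). Across all genes annotated as long noncoding RNA, 105 of 268 tested were higher and 5 lower, with a median of 0.58, beside -0.00 for 10598 protein-coding genes. Low ones among these too could pass the filter through the side where they are high.

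Splicing factors and speckle proteins went the same way by less. Of 28 tested, 19 were higher and 1 lower, with a median log2 difference of 0.49 (18 and 1 without the 2 libraries numbered 2). Srsf7, a serine and arginine-rich splicing factor, stood at 37.3 to 44.7 CPM on the high side and 15.3 to 24.4 CPM on the low side (log2 1.01 ± 0.13 SE). Pnisr, a speckle protein, stood at 8.13 to 12.7 CPM against 4.15 to 5.39 CPM (log2 1.14 ± 0.11 SE). The genes whose levels were most like Malat1 over the 12 libraries, after each time group's mean was taken off, were Tmem199 (Pearson r 0.991 of log2 CPM), Neat1 (0.986) and Ccnl2 (0.984), the last a cyclin of nuclear speckles. Ccnl2 ran from 35.6 to 52.0 CPM on the high side and from 9.34 to 16.2 CPM on the low side.

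The share of reads that fell in no annotated gene, which the rule did not use, differed between the sides. It was 7.57 ± 1.17% (SD, n = 5) on the high side, from 6.04 to 9.02%, and 5.45 ± 0.271% (SD, n = 7) on the low side, from 5.06 to 5.79%. All high libraries lay above all low ones, and an exact two-sided permutation test within time groups gave p = 0.00694, the smallest that its 144 arrangements allow (adjusted over 4 library measures, 0.0278). Reads that fit more than 1 gene made up 0.933 ± 0.0412% of the high side (n = 5) and 1.05 ± 0.0571% of the low side (n = 7; exact permutation p = 0.0208, adjusted 0.0417). Genes with a count numbered 13357 ± 268 on the high side (n = 5) and 12917 ± 290 on the low side (n = 7; exact permutation p = 0.0347, adjusted 0.0463). The total count did not separate them, at 27507237 to 28648920 (n = 5) against 26195934 to 30631781 (n = 7, exact permutation p = 0.174). The sides were drawn from these same libraries and nearly repeat the replicate number. These p-values therefore describe the split and do not test a labelled condition. Reads in no annotated gene can come from introns, from RNA between genes and from transcripts outside the annotation, among other sources. The files do not divide them, and their source was not tested.

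RNA quality was looked at through gene length and base composition. Genes were placed in 5 equal bins by exon length, which was found for 96.5% of them. The median log2 difference went stepwise from 0.27 in the shortest bin (up to 2448 bases) through 0.08, -0.01 and -0.08 to -0.19 in the longest (from 7558 bases). Without replicate 2 at 36 h the ends were 0.23 and -0.13. Within single libraries, each gene's log2(CPM + 1) was set against its median over the 12 libraries. The median of these deviations was then taken per bin. Replicate 2 at 36 h lay at 0.29 in the shortest bin and at -0.37 in the longest. The other high libraries lay between 0.06 and 0.19 in the shortest bin and between -0.08 and -0.01 in the longest. The low libraries lay between -0.08 and 0.01 and between -0.06 and 0.07. In the shortest bin every high library thus lay above every low one. In the longest the sides overlapped only through replicate 4 at 36 h, a low library at -0.06.

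Base composition moved with the split as well. By the GC content of the transcripts, the median log2 difference ran from 0.19 in the lowest bin to -0.15 in the highest. The part of RNA breakage, capture or GC in the split was not tested.

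**Figure D2:**
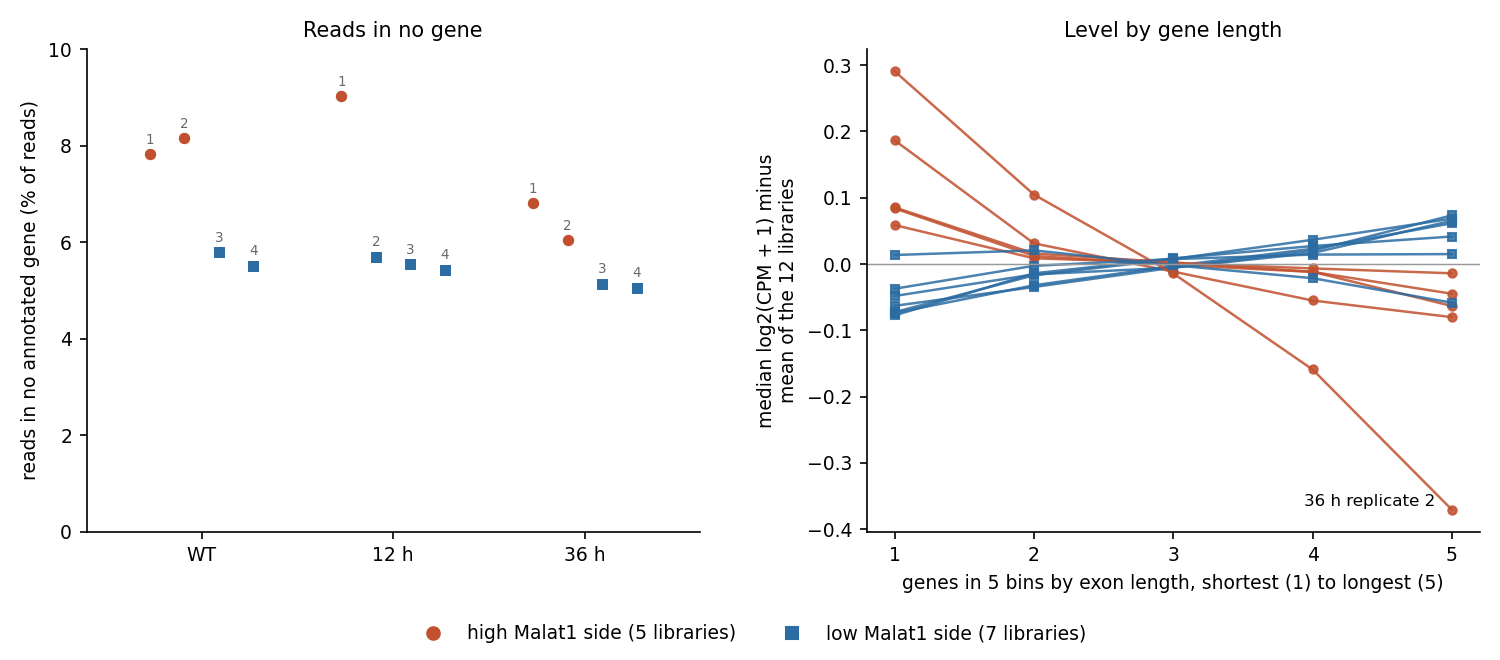
Left, share of reads in no annotated gene (% of reads) in each library by time group, with the replicate number beside each point. Right, log2(CPM + 1) minus each gene's median over the 12 libraries, as the median over genes in 5 bins by exon length, 1 line per library. The axis label at right says mean, but the median was taken off. All 5 high libraries (circles) lie above 6% and all 7 low ones (squares) below it at left, and replicate 2 at 36 h has the steepest line at right, from 0.29 to -0.37.

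Most ribosomal protein mRNAs, which are short, were higher on the high side. Of 35 cytosolic ribosomal protein genes, 28 were higher and none lower, with a median log2 difference of 0.53 (28 and 1 without the 2 libraries numbered 2). Rpl13a ran from 109.8 to 156 CPM against 53.7 to 69.0 CPM (2.07-fold), and Rps3 from 138 to 188 CPM against 85.8 to 102 CPM (1.68-fold). Of 28 nuclear genes of oxidative phosphorylation, 17 were higher and 4 lower, with a median of 0.44, while the summed list overlapped at 7875 to 9774 CPM on the high side and 8095 to 9282 CPM on the low side. Ndufa4, of the respiratory chain, ran from 336 to 475 CPM against 196 to 227 CPM, and Atp5e, of the ATP synthase, from 102 to 143 CPM against 53.5 to 67.8 CPM. None of the 26 names listed for genes of the mitochondrial genome was in the files, so the mitochondrial share of the reads was not analysed here.

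Among lists with at least 10 tested genes, those of lipid synthesis had the lowest medians. Of 17 genes of fatty acid synthesis, 16 were lower on the high side and none higher, with a median log2 difference of -1.60, and 12 of them had sides that did not overlap. Of 24 genes of sterol synthesis and uptake, 21 were lower and none higher, with a median of -0.76, and 15 did not overlap. Over all genes, 20.6% were called lower and 10.6% had the high side wholly below the low side. Without the 2 libraries numbered 2 the counts for these lists were 16 and 21 lower. Within single time groups, 13 and 22 were lower in WT, 3 and 4 at 12 h with 1 high library, and 15 and 18 at 36 h.

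**Figure D3:**
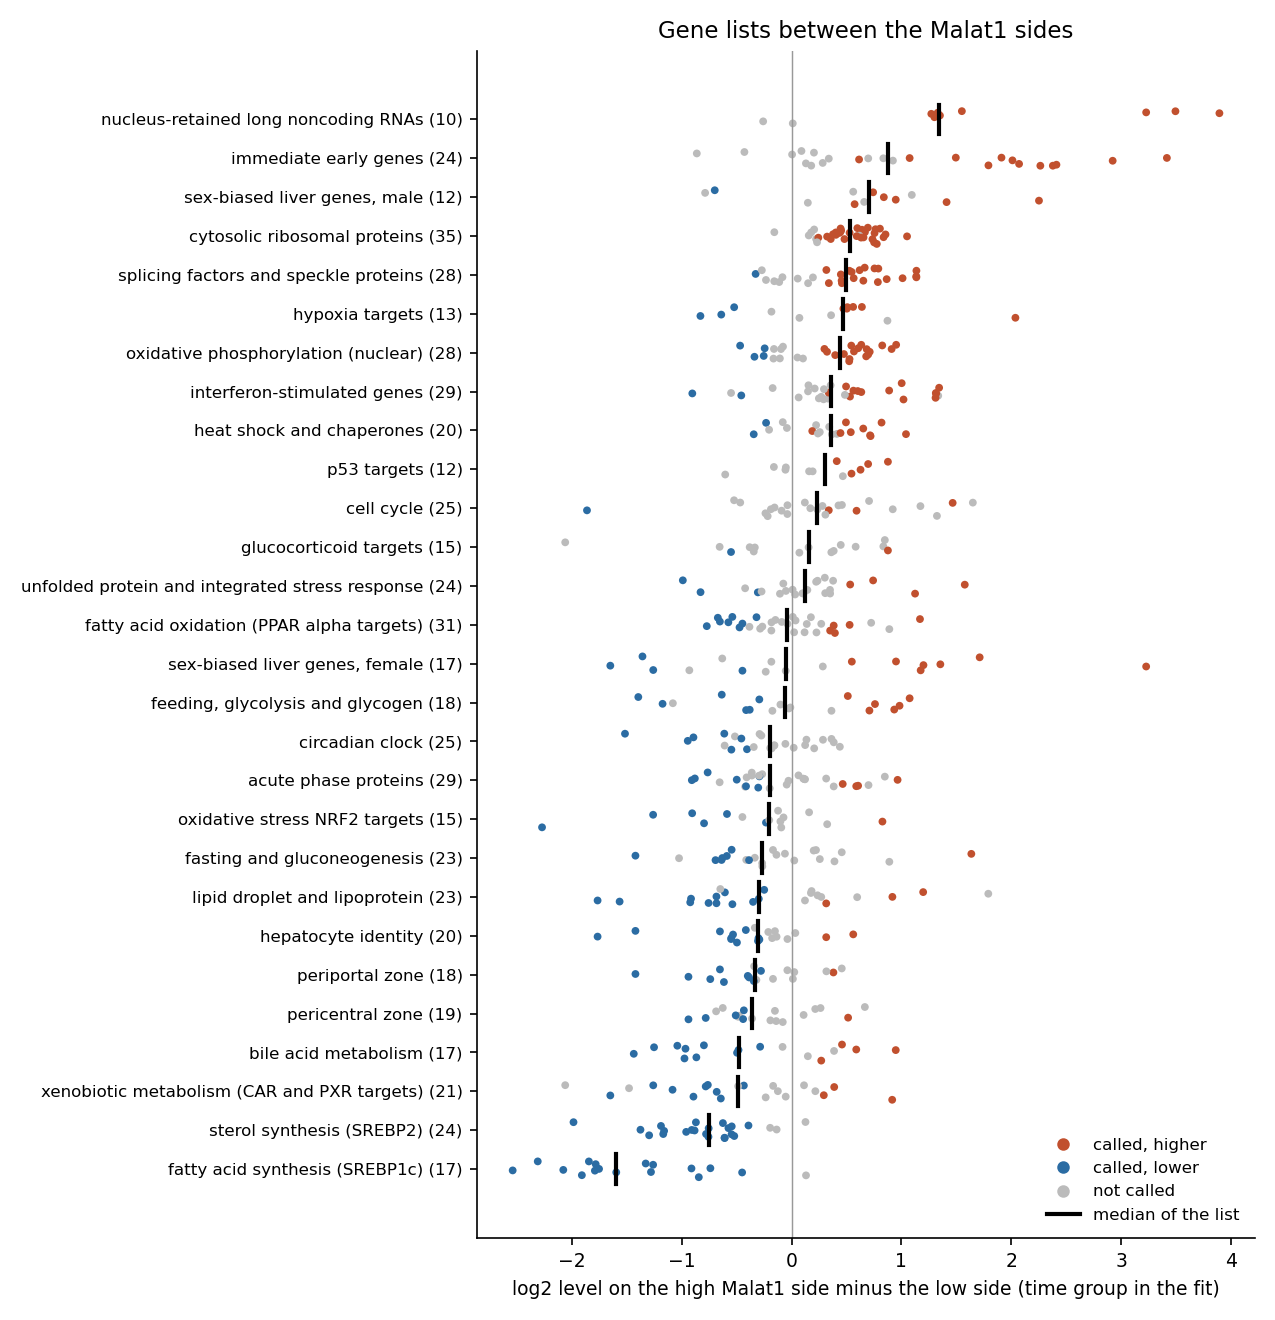
Log2 difference between the Malat1 sides for each tested member (points) of the gene lists with at least 10 tested genes; the bar is the list's median and the number beside each name the members tested, Malat1 left out. Fatty acid synthesis and sterol synthesis lie lowest, with medians of -1.60 and -0.76. The list drawn up for nucleus-retained RNAs lies highest, with 1.34.

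Scd1, stearoyl-CoA desaturase, which puts the double bond into stearate, had the highest level of both lists. It stood at 4836 and 4597 CPM in the high WT libraries, 5260 CPM at 12 h and 2655 and 3970 CPM at 36 h, against 15537 to 36647 CPM with a median of 23268 on the low side. The low side was 5.82-fold higher (log2 -2.54 ± 0.22 SE), and no library of one side reached the other. Fasn, fatty acid synthase, stood at 523 and 691 CPM, 863 CPM, and 452 and 171 CPM in the same order, against 1839 to 4474 CPM (log2 -2.31 ± 0.36 SE). The lowest value, 171 CPM, is that of replicate 2 at 36 h, and the exons of Fasn span 10947 bases.

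Other enzymes of the pathway were ordered alike. Acaca, acetyl-CoA carboxylase, ran from 9.997 to 63.6 CPM on the high side and from 106 to 252 CPM on the low side, its lowest value again in replicate 2 at 36 h. Elovl5, a fatty acid elongase, ran from 430.4 to 638 CPM against 879 to 1685 CPM (2.51-fold higher on the low side). Gpam, which starts triglyceride assembly, ran from 63.4 to 165 CPM against 314 to 766 CPM (4.23-fold). G6pdx, the NADPH source of the pentose phosphate pathway, ran from 5.43 to 11.4 CPM against 11.6 to 72.3 CPM, so its sides met closely. Srebf1, the gene of the regulator SREBP1, ran from 107 to 246 CPM against 406 to 839 CPM (log2 -1.75 ± 0.24 SE); it lies outside the rule for naming genes and was chosen after its values were seen.

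In sterol synthesis, Dhcr7, which carries out the last step to cholesterol, stood at 68.5 and 73.8 CPM in WT, 86.0 CPM at 12 h and 56.2 and 61.4 CPM at 36 h on the high side. On the low side it ran from 192 to 354 CPM with a median of 276 (3.96-fold higher, log2 -1.99 ± 0.15 SE). Sqle, squalene epoxidase, ran from 121 to 193 CPM against 296 to 404 CPM (2.28-fold). Neither gene had sides that overlap. Scd1 was also measured in the other cells at far lower plain CPM, 14.3 to 139 in stellate and 4.38 to 95.7 in endothelial libraries. The libraries there that share time and number with the high hepatocyte ones held 47.4 to 71.5 CPM with a median of 53.8 in stellate and 10.2 to 28.2 CPM with a median of 22.4 in endothelial cells. The others had medians of 99.0 and 49.8 CPM, so the medians lay in the same direction as in hepatocytes while the ranges overlap, and the difference was not tested.

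Export and storage of lipid differed by gene. Of 23 lipid droplet and lipoprotein genes, 12 were lower and 3 higher, with a median of -0.30 (9 and 7 with scaling by totals alone). Apob, the protein of very low density lipoprotein, ran from 782 to 1529 CPM on the high side and from 3987 to 4971 CPM on the low side (3.40-fold lower on the high side), with its lowest value in replicate 2 at 36 h. Mttp, which loads lipid onto it, ran from 250 to 341 CPM against 444 to 617 CPM. Apoa1, of high density lipoprotein, was slightly higher, at 7233 to 10877 CPM against 6171 to 7383 CPM (log2 0.32 ± 0.09 SE), and the sides overlap.

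Genes of fatty acid oxidation did not move one way. Of 31, 5 were higher and 8 lower, beside 22.5% higher and 20.6% lower of all genes, with a median of -0.04. With scaling by totals alone, 11 were higher and 6 lower, with a median of 0.14. Cpt1a, which admits fatty acids to mitochondria, overlapped between the sides (log2 -0.67 ± 0.13 SE). Fabp1, the abundant fatty acid binding protein, was higher on the high side, at 1599 to 2912 CPM against 926 to 1142 CPM (2.25-fold, log2 1.17 ± 0.13 SE).

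**Figure D4:**
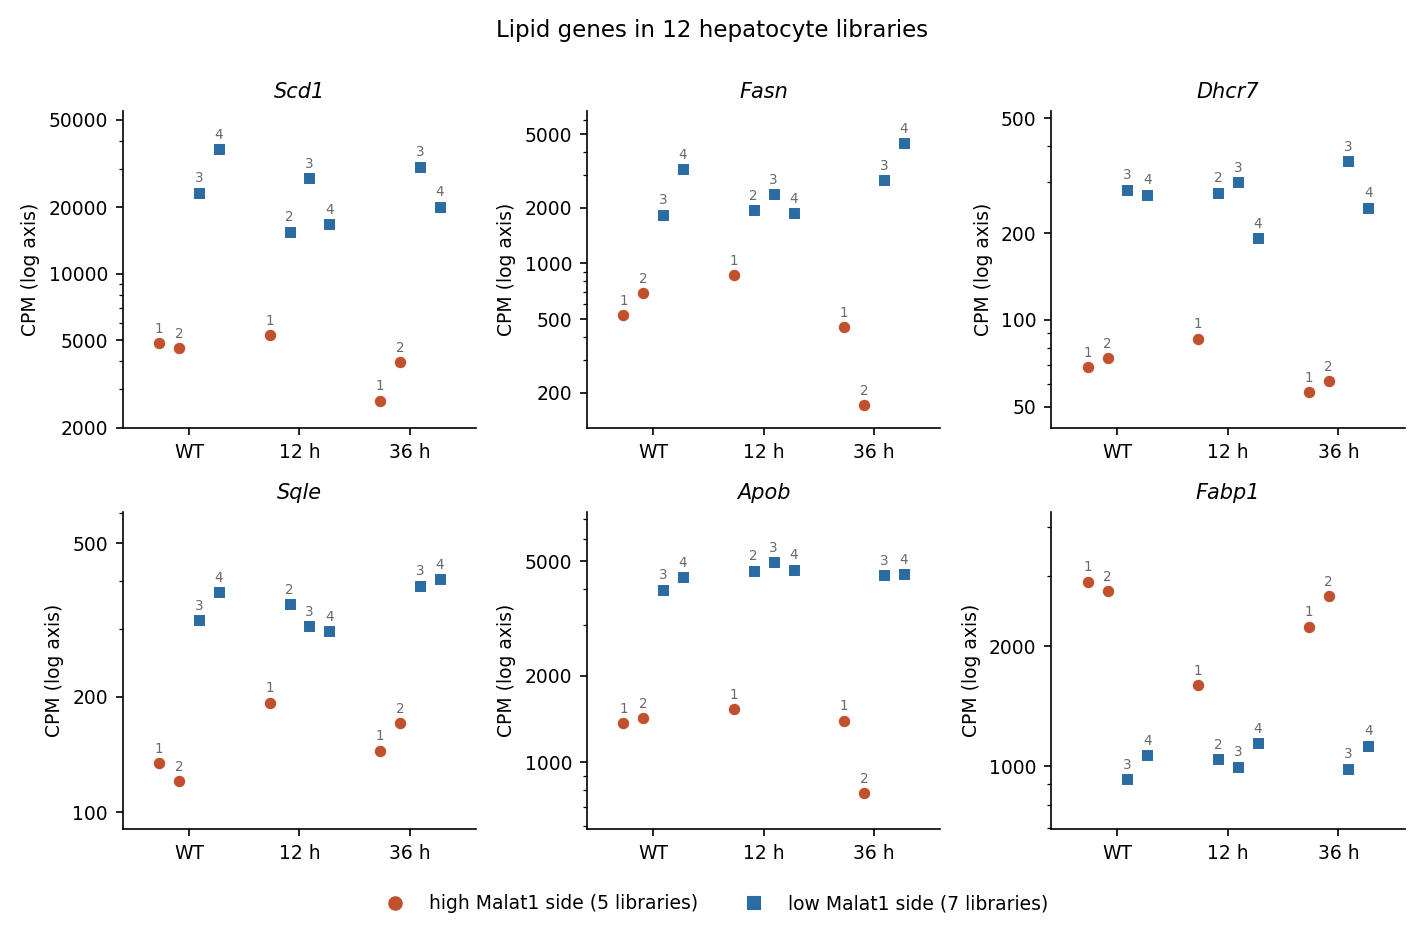
Level of 6 lipid genes in each of 12 hepatocyte libraries (CPM on TMM-scaled totals, log axes), by time group, with the replicate number beside each point; circles are the high Malat1 side and squares the low side. Scd1, Fasn, Dhcr7, Sqle and Apob are lower in all 5 high libraries than in all 7 low ones, and Fabp1 is higher.

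As background, the promoters of Hmgcs1 and Fasn are shown, since the sterol and fatty acid lists hold known targets of SREBP. SREBP binds sterol elements next to NF-Y at CCAAT boxes. Its part in the split was not tested. The sequences are RefSeq's, from 250 bases before to 50 after the start site on GRCm38, read on the gene's strand, with capitals at the motifs found.
Hmgcs1 promoter, chr13:119690101-119690400, plus strand: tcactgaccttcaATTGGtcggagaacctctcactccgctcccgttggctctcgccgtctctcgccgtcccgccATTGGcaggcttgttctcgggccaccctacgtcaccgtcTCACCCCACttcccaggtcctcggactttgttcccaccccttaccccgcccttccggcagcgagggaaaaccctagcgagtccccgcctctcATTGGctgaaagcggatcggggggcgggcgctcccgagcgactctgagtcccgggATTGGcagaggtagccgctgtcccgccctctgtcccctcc
Fasn promoter, chr11:120824498-120824797, minus strand: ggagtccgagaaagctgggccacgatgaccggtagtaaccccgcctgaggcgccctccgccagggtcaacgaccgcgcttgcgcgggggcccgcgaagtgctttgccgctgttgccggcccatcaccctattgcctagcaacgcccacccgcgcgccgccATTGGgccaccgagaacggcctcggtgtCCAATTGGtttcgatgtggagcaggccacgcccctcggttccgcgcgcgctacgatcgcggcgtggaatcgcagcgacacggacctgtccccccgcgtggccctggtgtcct
Capitals mark the CCAAT box, which is CCAAT or, on the other strand, ATTGG, and, in Hmgcs1, the sterol element TCACNCCAC, both searched on both strands. Hmgcs1, of the cholesterol pathway, held 4 CCAAT boxes and the sterol element, which starts 137 bases before the start site. The Fasn window held 3 CCAAT boxes, of which the last 2 overlap, and no match to this sterol element. The window of Cyp51, of the sterol list, was also read but is not printed. It held 1 CCAAT box and no match to the sterol element. The table held 16 promoters of the sterol list and 15 of the fatty acid list. A CCAAT box was found in 16 of 16 and 12 of 15 of them, and in 15 of 20 of the clock list, beside 41.1% of 27025 promoters in the table and 43.5% of those of genes tested. The sterol element was found in 1 of 16, that of Hmgcs1, and in 0 of 15, beside 1.44% of all. A match is a description of these letters and not a measured site. Hmgcs1 itself stood at 704 and 686 CPM in WT, 1187 CPM at 12 h and 758 and 877 CPM at 36 h on the high side and at 983 to 1533 CPM on the low side (log2 -0.55 ± 0.14 SE). Its sides overlap at 12 h replicate 1, it was no longer called with scaling by totals alone, and it was chosen for its promoter after its values were seen.

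Among stress genes, the immediate early genes were higher on the high side. Of 24 tested, 12 were higher and none lower, with a median log2 difference of 0.88, and 14 and none without the 2 libraries numbered 2. Jun, a subunit of AP-1, stood at 476 and 354 CPM in WT, 494 CPM at 12 h and 394 and 289 CPM at 36 h on the high side. It ran from 49.4 to 139 CPM with a median of 76.6 on the low side (4.81-fold, log2 2.27 ± 0.27 SE), so no low library reached the lowest high one. Ier2 ran from 193 to 246 CPM against 47.0 to 98.8 CPM, Junb from 151 to 189 CPM against 29.0 to 73.7 CPM, and Btg2, an early antiproliferative gene, from 85.4 to 177 CPM against 17.2 to 50.1 CPM. Atf3, a stress-induced repressor, ran from 14.8 to 51.8 CPM against 0.735 to 8.31 CPM (10.7-fold).

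The immediate early genes were also compared within each time. Within WT, 12 members of the list were higher and none lower, with a median of 1.88, and within 36 h 6 were higher and 3 lower, with a median of 0.43. In 36 h the low libraries were above the low WT libraries for Jun, at 125 and 125 CPM against 57.0 and 53.9 CPM. The difference between the 36 h gap and the WT gap passed in edgeR (quasi-likelihood, Benjamini-Hochberg) for 3 of 11326 genes, all with adjusted p = 0.0491, and for none at 12 h. Since the sides were drawn from the same libraries, these values too rank genes rather than test a labelled condition. They are Dusp1, a phosphatase that ends MAP kinase signalling (log2 -2.58), Csrnp1, an early nuclear protein (-2.85), and Slc25a25, a mitochondrial carrier (-3.36). Slc25a25 stood at 355 and 215 CPM in the high and 84.6 and 75.8 CPM in the low WT libraries, and at 125 and 95.5 CPM in the high and 320.3 and 315 CPM in the low 36 h libraries, so its order turned. None of the 3 was called over all time groups in the main fit. Dusp1 was called higher with scaling by totals alone and without both libraries numbered 2 (log2 1.02 and 1.17). It was also called higher with no filter on low counts, with Malat1 as a number, and without replicate 1, 2 or 4 at 36 h.

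Chaperones and other stress lists differed less. Of 20 heat shock and chaperone genes, 9 were higher and 2 lower (median 0.35), with Hspb1, a small heat shock protein, at 46.2 to 56.7 CPM against 18.6 to 35.4 CPM and Dnajb1 at 32.8 to 46.2 CPM against 16.3 to 28.4 CPM. Of 12 p53 targets, 5 were higher and none lower (median 0.30), with Mdm2, which degrades p53, at 27.7 to 39.1 CPM against 18.4 to 24.2 CPM. Of 13 hypoxia targets, 6 were higher and 3 lower (median 0.47), with Ndrg1 at 31.6 to 37.6 CPM against 18.8 to 29.1 CPM and the glucose transporter gene Slc2a1 lower, at 8.64 to 13.5 CPM against 14.4 to 28.4 CPM. Gdf15, a hormone of cell stress, ran from 46.2 to 64.2 CPM against 7.84 to 23.0 CPM (4.08-fold), and the chemokine gene Cxcl1 from 10.2 to 22.1 CPM against 0.875 to 3.90 CPM (6.58-fold).

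The unfolded protein response went no single way. Of 24 genes of this list and the integrated stress response, 4 were higher and 3 lower, beside 22.5% and 20.6% of all genes. The median was 0.13, and the counts were 7 and 3 without both libraries numbered 2. Atf4, its main regulator, ran from 54.0 to 73.1 CPM against 34.0 to 66.8 CPM and overlapped, and Ddit3, the gene of CHOP, ran from 2.996 to 4.35 CPM against 0.959 to 2.58 CPM. Edem1, a gene of endoplasmic reticulum protein degradation, was lower, at 166 to 226 CPM against 332 to 470 CPM (log2 -0.99 ± 0.09 SE). Derl3, another gene of that degradation, differed 16.7-fold, at 4.45 and 5.17 CPM in WT, 13.5 CPM at 12 h and 11.8 and 14.1 CPM at 36 h against 0.0700 to 4.10 CPM.

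Replicate 2 at 12 h gave the highest low-side value of several of these genes. It held Derl3 at 4.10 CPM, where the other 6 low libraries held at most 1.45 CPM, and Sdf2l1, an endoplasmic reticulum chaperone partner, at 102 CPM, within the high side's 66.8 to 119 CPM. Its acute phase proteins were also the highest, with Serpina3n at 567 CPM where the other 11 libraries held 150 to 298 CPM, and the complement gene C3 at 16502 CPM where they held 3529.9 to 14342 CPM. Of 29 acute phase genes, 4 were higher and 7 lower with it (22.5% and 20.6% over all genes), with a median of -0.20. Without it and replicate 2 at 36 h, 9 were higher and 9 lower, with a median of 0.12. The median's sign thus turns with these libraries. Of 15 NRF2 targets, 1 was higher and 6 lower (median -0.20, or 3 and 4 with -0.02 by totals alone), among them Me1, malic enzyme, which also supplies NADPH for lipid synthesis, at 318 to 471 CPM against 482 to 1357 CPM.

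Few clock genes were called, but none of them was higher. Of 25 tested, 7 were lower, beside 20.6% of all genes, with a median log2 difference of -0.19, or 3 and 5 with a median of -0.01 with scaling by totals alone. Arntl, the gene of BMAL1, ran from 37.5 to 47.6 CPM against 43.2 to 48.7 CPM and was not called. Its partner Clock ran from 16.7 to 40.7 CPM against 24.3 to 40.7 CPM and was not called either. The summed list ran from 880.04 to 1047 CPM on the high side and from 1150.5 to 1446 CPM on the low side, so the summed levels did not overlap. Por, described next, is part of that sum. Arntl and Clock, chosen after their values were seen, overlap over most of their range.

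Among the called clock genes, the repressor gene Cry2 ran from 24.5 to 31.1 CPM on the high side and from 32.3 to 49.998 CPM on the low side (log2 -0.61 ± 0.10 SE). Nr1d1, the gene of REV-ERB alpha, also chosen after its values were seen, ran from 2.93 to 9.42 CPM against 9.31 to 41.6 CPM (log2 -1.52 ± 0.43 SE), and its sides meet. Rora, an activator of Arntl, and Per3 were lower and overlapped (log2 -0.46 ± 0.10 SE and -0.95 ± 0.25 SE). Por, the electron donor of cytochrome P450 enzymes and listed as a clock output, ran from 200.5 to 273 CPM against 360.3 to 488 CPM (log2 -0.89 ± 0.07 SE).

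**Figure D5:**
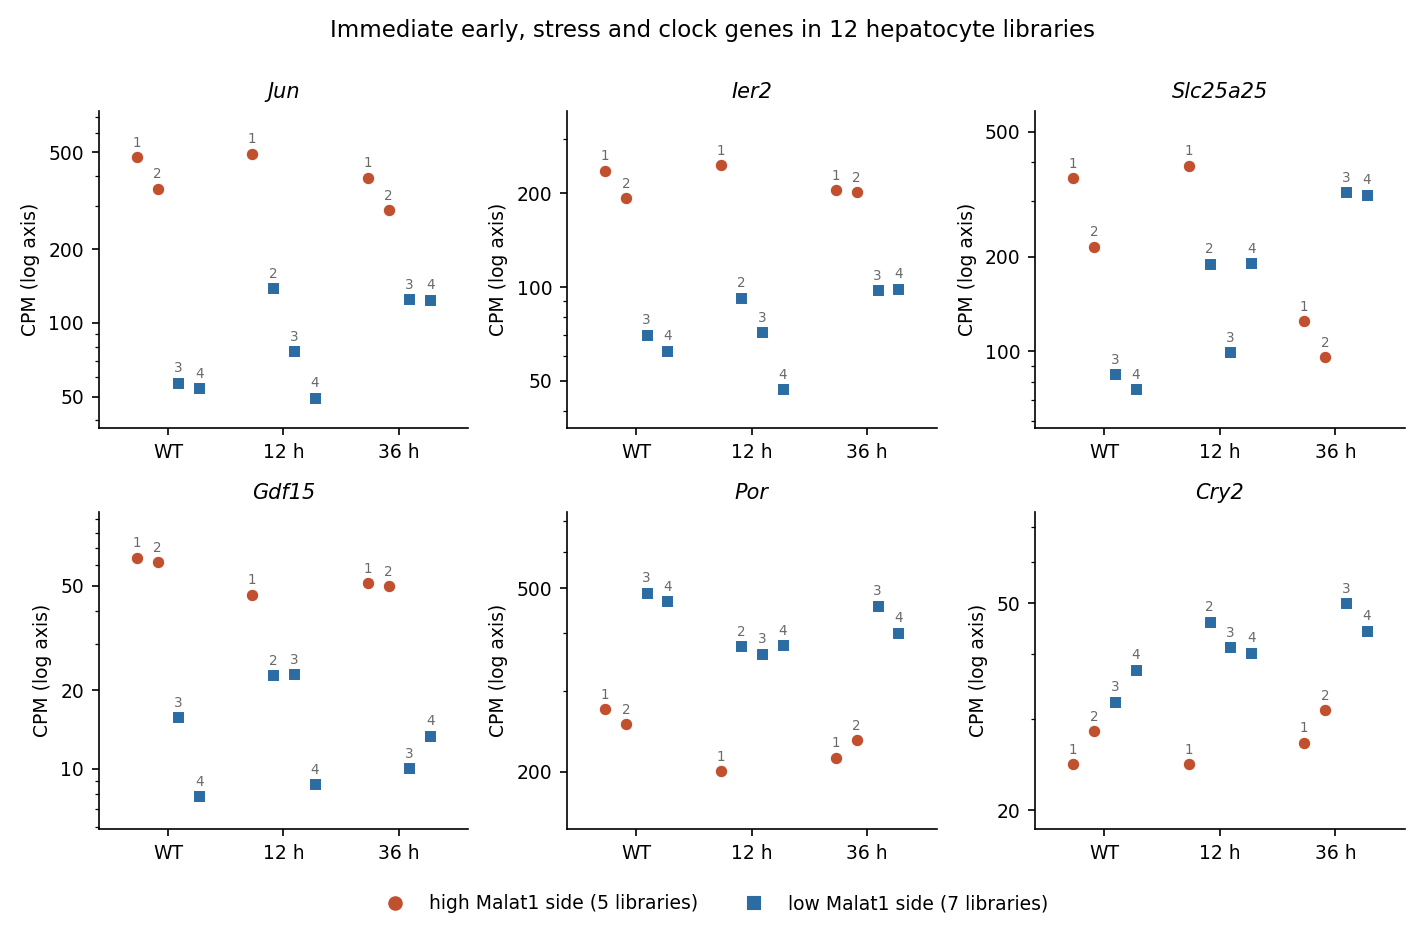
Level of Jun, Ier2, Slc25a25, Gdf15, Por and Cry2 in each of 12 hepatocyte libraries (CPM on TMM-scaled totals, log axes), by time group, with the replicate number beside each point; circles are the high Malat1 side and squares the low side. Jun, Ier2 and Gdf15 are higher and Por and Cry2 lower in every high library, and the order of Slc25a25 at 36 h is the reverse of that in WT.

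Feeding and fasting lists held genes of both directions. Of 18 genes of feeding, glycolysis and glycogen, 6 were higher and 6 lower, with a median of -0.06, or 6 and 3 with a median of 0.12 with scaling by totals alone. Slc2a2, the glucose transporter of hepatocytes, ran from 145 to 167 CPM on the high side and from 262 to 478 CPM on the low side (2.63-fold lower on the high side), and Pklr, liver pyruvate kinase, from 72.5 to 103 CPM against 129.6 to 256 CPM (2.26-fold). Ppp1r3c, which targets a phosphatase to glycogen, was higher, at 72.2 to 132 CPM against 43.4 to 89.7 CPM, and overlapped. Of 23 genes of fasting and gluconeogenesis, 1 was higher and 7 lower, with a median of -0.27, or 5 and 5 with a median of -0.08 with scaling by totals alone. The higher one is Gadd45a, at 4.20 to 11.2 CPM against 1.01 to 4.75 CPM, and Cps1, the first enzyme of the urea cycle, was lower, at 2381 to 4175 CPM against 7248 to 10561 CPM (2.68-fold). Of 15 glucocorticoid targets, 1 was higher and 1 lower, beside 22.5% and 20.6% of all genes. Without both libraries numbered 2, 5 were higher and 2 lower.

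Specialised functions of the hepatocyte were more often lower than higher on the high side. Of 20 hepatocyte identity genes, 11 were lower and 2 higher (median -0.30), with Alb, albumin, at 21501 to 33892 CPM against 36147 to 45925 CPM (log2 -0.55 ± 0.11 SE). Of 17 bile acid genes, 10 were lower and 4 higher (median -0.48), with the uptake transporter Slc10a1 at 505 to 602 CPM against 689 to 1042 CPM and the exporter Abcc3 at 110.4 to 210 CPM against 364 to 631 CPM. Of 21 xenobiotic genes, 9 were lower and 3 higher (median -0.49), with Cyp2b13 at 66.6 to 138 CPM against 187 to 369 CPM, while Nr1i3, the gene of the receptor CAR that drives Cyp2b genes, was higher, at 78.6 to 94.8 CPM against 36.2 to 54.4 CPM. Of 18 periportal genes, 9 were lower and 1 higher, with Cyp2f2 at 968 to 1354 CPM against 1916 to 2899 CPM. Of 19 pericentral genes, 5 were lower and 1 higher, a share near the 20.6% lower over all genes, and none had sides apart. All of these lists have medians of -0.12 to -0.30 with scaling by totals alone.

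Male-biased and interferon-stimulated genes were more often higher than lower on the high side, and female-biased genes were mixed. Over all genes, 22.5% were higher and 20.6% lower. The sides overlapped for most members of each of these lists. Of 12 genes with male bias in liver, 6 were higher and 1 lower (median 0.70), with the major urinary protein gene Mup20 at 226 to 414 CPM against 106 to 211 CPM and Hsd3b5, a steroid dehydrogenase, at 2.14 to 19.2 CPM against 0.243 to 4.27 CPM, with overlap. Of 17 with female bias, Xist among them, 7 were higher and 4 lower (median -0.05, or 0.13 by totals alone), with Cyp17a1 at 49.6 to 124 CPM against 136 to 329 CPM. Of 29 interferon-stimulated genes, 13 were higher and 2 lower (median 0.36). Of 25 cell cycle genes, 3 were higher and 1 lower, beside 22.5% and 20.6% of all genes, or 7 and 1 without both libraries numbered 2. Other large named differences were Ugt2b37, a glucuronosyltransferase, at 19.6 to 80.6 CPM against 4.93 to 16.8 CPM, Erdr1 at 7.24 to 34.5 CPM against 0.206 to 1.31 CPM, and Scd2, a relative of Scd1, at 0.164 to 4.36 CPM against 5.41 to 28.5 CPM.

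Markers of other liver cells were low on both sides, and defining Kupffer cell genes differed between the sides within WT. Clec4f, which marks Kupffer cells, stood at 2.17 and 5.07 CPM in the high and 0.119 and 0.455 CPM in the low WT libraries and at 0 in all 8 libraries after DT. Vsig4 and Timd4 were at 0 after DT too and reached at most 1.21 CPM in the high WT libraries. The summed level of the 18 Kupffer and macrophage markers ran from 174 to 211 CPM on the high side and from 106 to 250 CPM on the low side, most of it from Slc40a1, which hepatocytes also express, and 2 of its 4 tested members were higher. The summed 20 sinusoidal endothelial markers ran from 10.4 to 19.4 CPM against 8.05 to 13.5 CPM with none of 6 tested called, and the 20 stellate markers from 18.8 to 37.2 CPM against 12.4 to 31.95 CPM with 1 of 4 called. The summed 15 monocyte and neutrophil markers ran from 2.21 to 4.66 CPM against 1.21 to 2.68 CPM with none of 1 tested called, and S100a9 was at 0 in all 12 libraries. Lymphocyte and erythroid lists each had 1 tested gene, not called, and 2 of 6 tested cholangiocyte genes were lower, with the summed list at 48.7 to 71.8 CPM against 78.5 to 98.3 CPM. The part of these cells in the split was not tested.

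With the side held in the fit, the labelled time groups differed at few genes. In edgeR (quasi-likelihood, Benjamini-Hochberg), 12 h against WT gave 2 called genes (0.0177%), 1 higher (0.00883%) and 1 lower (0.00883%), where 803 genes (7.09%) had an unadjusted p under 0.05. At 36 h against WT 10 genes (0.0883%) were called, 4 higher (0.0353%) and 6 lower (0.053%), with 1235 (10.9%) under that unadjusted p. Without the side in the fit 0 genes (0%) were called in either comparison, with 453 (4%) and 563 (4.97%) genes at an unadjusted p under 0.05, while DESeq2 called 45 and 60. The Malat1 side was set on the same libraries, so these calls are given only with that condition. The comparisons share the WT libraries.

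The clearest time difference was in Id3, an inhibitor of basic helix-loop-helix factors that BMP signalling induces. It stood at 43.0 and 44.0 CPM in the high and 11.9 and 10.2 CPM in the low WT libraries, at 97.8 CPM in the high and 59.0 to 61.2 CPM in the low 12 h libraries, and at 125 and 113 CPM and 55.7 and 61.9 CPM at 36 h. On each side every library after DT lay above every WT library. The log2 fold change was 1.91 ± 0.21 SE at 12 h (edgeR, adjusted p = 0.00367) and 1.88 ± 0.19 SE at 36 h (edgeR, adjusted p = 0.00171). Its relative Id2 rose at 36 h by a log2 of 1.13 ± 0.12 SE (edgeR, adjusted p = 0.00171), from 107 ± 27.5 CPM in WT to 233 ± 49.8 CPM (SD, n = 4 each). Leaving out any 1 library kept both calls at 36 h, while Id3 at 12 h was lost without WT replicate 3 (edgeR, adjusted p = 0.0533).

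Other time calls were less stable. At 36 h Angptl4, an inhibitor of lipoprotein lipase, fell by 2.04 on the log2 scale (± 0.34 SE, edgeR, adjusted p = 0.0491) from 179 ± 29.3 to 48.0 ± 30.0 CPM (SD, n = 4 each). Herpud1, of endoplasmic reticulum degradation, fell by 1.38 (± 0.21 SE, edgeR, adjusted p = 0.0315) and Ppp1r3c rose by 0.66 (± 0.11 SE, edgeR, adjusted p = 0.0491). In turn 8, 5 and 8 of the 12 fits that each left out 1 library lost these calls, with adjusted p up to 0.152, 0.102 and 0.152. Cd5l, a secreted protein of Kupffer cells, was the gene called lower at 12 h (edgeR, adjusted p = 0.0390); it stood at 2.69 and 3.73 CPM in the high and 0.158 and 0.140 CPM in the low WT libraries and at 0 in all 4 libraries at 12 h. That call was lost in 10 of 12 fits without 1 library.

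Summed gene counts ran from 26195934 to 30631781 per hepatocyte library and from 25404719 to 31734631 over all 36 libraries. No 2 libraries of a group were identical, among 54 pairs compared. Malat1 was counted 621 to 16028 times in each hepatocyte library.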

How the data were processed

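RNA of the 12 hepatocyte libraries and of 24 libraries of other liver cells was sequenced in bulk. The deposited files hold raw read counts for 24421 gene symbols and 5 lines that name no gene. Per the submitters' processing notes, reads were checked with FastQC 0.11.4, trimmed with Trimmomatic 0.35 and aligned to mm10 with TopHat2 2.1.0, with SAMtools 0.1.18 for file handling; the counting tool, its annotation and its use of strand were not given in the sources used here. Overlapping, antisense and near-identical genes therefore cannot be told apart with certainty. The lines that name no gene were left out of totals and tests; reads in no feature made up 5.06 to 9.02% and ambiguous reads 0.887 to 1.10% in hepatocytes.

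The 12 hepatocyte libraries were fitted alone with edgeR 4.0.16 in R 4.3.3 (TMM scaling, quasi-likelihood test, genes kept by filterByExpr with a minimum count of 10 and a total of 15). P-values were adjusted by Benjamini-Hochberg over all genes tested, with 0.05 as the threshold. The SE is the log2 difference divided by the root of the F value. Library measures were compared with an exact permutation test. The members, the gene lists and the motifs were chosen with earlier results of these data known, so no list supports the split independently. Named genes were Malat1, the 12 largest differences each way among called genes with no overlap and at least 5 CPM, the 8 most like Malat1, up to 4 members of each list, and up to 5 genes each way per time comparison; genes chosen otherwise are marked, and not all that qualified are printed; some are not reported here. Dusp1, Csrnp1 and Slc25a25 are named because they were all the genes whose gap differed. Positions and exon lengths are from GENCODE M21, and promoters from RefSeq. The fits were tested on simulated data. Alternatives covered scaling, filter, threshold, Malat1 as a number, single time groups, single libraries left out, a replicate block and DESeq2 1.42.0.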

Additional observations from a re-analysis of the deposited data

Results flagged for a closer look

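Within groups of 4 libraries, 258 checks were made of single libraries far from the other 3 (82 genes and 4 library measures in 3 time groups), and 18 found one; chance gives about 1 in 20. Replicate 1 at 12 h accounts for 14 of the 18. It is the only high library of its group by the rule on Malat1, and most of the genes checked were named for following the split, so the chance rate does not apply to these 14 and they are a description. It stood far above its group in Malat1 (478 CPM), Neat1 (125 CPM), Xist (43.0 CPM), Firre (14.8 CPM), Erdr1 (34.5 CPM), Ccnl2 (52.0 CPM), Pnisr (11.6 CPM), Tmem199 (10.9 CPM), Atp5e (116 CPM), Ndufa4 (362 CPM) and Id3 (97.8 CPM), and in the share of reads in no gene (9.02%). It stood far below in Apob (1529 CPM) and Por (200.5 CPM). The other 4 were in WT. Replicate 4 was far above the others in G6pdx (64.2 CPM) and in total count (30.3 in units of 1000000 reads). Replicate 1 was far above in Hsd3b5 (12.0 CPM), and replicate 3 in Nr1d1 (23.4 CPM).

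The gap between the sides passed the threshold for a difference between 36 h and WT at 3 genes, at log2 -2.58 for Dusp1, -2.85 for Csrnp1 and -3.36 for Slc25a25. Since the sides were drawn from the same libraries, this ranks genes and does not test a labelled condition. All 3 genes were higher in the high libraries of WT. At 36 h Csrnp1 and Slc25a25 were higher in the low libraries, and Dusp1 overlapped.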

How the results depend on the processing

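Of the named genes called between the sides, all 70 kept their call whichever 1 library was left out, and the number of genes called then ran from 4115 to 4996. The number was 1852 within WT, 485 within 12 h, where the high side is 1 library assumed to vary like the others, and 2695 within 36 h. The replicate block gave 1298; the number nearly repeats the side. Of 77 named genes, 37 were as before under the block, 37 lost their call (Jun at log2 1.001, Ier2 0.84, Atf3 0.48, Btg2 0.99 and Fasn -2.24 among them) and 3 turned sign. Neat1, Xist, Scd1, Dhcr7, Apob and Rpl13a kept theirs. Nothing in the labels says what the numbers stand for, and the libraries are treated as sharing only a number, since not every pair correlated: same-numbered libraries deviated from their group means with r from -0.11 to 0.53, over 0.1 in 10 of 12 pairs, and 7 of 12 libraries correlated best with their own number, so a pairing was not established and a partial one cannot be told apart from the side. Under the block the turned differences between the sides were log2 -0.018 for Hsd3b5, 0.32 for Nr1d1 and -0.12 for Sdf2l1. Within WT Csrnp1 was at 1.33 and within 36 h Slc25a25 at -1.53, also turned. Scaling by totals ended the call of Hmgcs1, and leaving out the time term that of Per3. The difference in reads in no gene ran from 1.75 to 2.50 percentage points with single libraries left out.

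Few genes were called between times, and their numbers moved. With the side in the fit, 12 h against WT gave 2 genes, and 4 with scaling by totals, 41 with no filter, 4 with the replicate block, 94 with DESeq2, 12 without the libraries numbered 2 at 12 h and 36 h (chosen after seeing the data), and 0 to 9 with 1 library left out (0 without WT replicate 3, 9 without 12 h replicate 2). At 36 h the 10 genes became 6, 86, 46, 186 and 21 under the same settings, and 2 to 46 with 1 library left out (2 without 36 h replicate 1, 46 without 12 h replicate 2). Without the side, 12 h gave 0 genes, and 1 with the replicate block, 4 within the high side, 6 within the low side, 45 with DESeq2 and 2 with the side as a term. At 36 h the 0 genes became 5, 20, 10, 60 and 10 under these settings, and 1 without the libraries numbered 2. The cause was not tested.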
